A study of Mus musculus with 6 samples.

Results

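The rows described here are miRNA hairpins, the folded precursors from which mature miRNAs are cut, as they were counted in small RNA libraries of mouse exosomes. A row was taken when its name was that of a hairpin (mir with a lower-case r, or a let-7 name without an arm) and its reads summed to 20 or more over the 6 libraries. This rule found 25 of 1226 hairpin rows among 16310 rows in all, and 542 hairpin rows had 0 reads in every library. Exosomes are small vesicles released by cells, and here they were collected from the medium of 2 kinds of cultured dorsal skin cells, with 3 libraries each, described in the labels as biological replicates. The first group came from epidermal stem cells (ESC) of C57BL/6 mice aged 3 weeks, picked by rapid adhesion to collagen IV and grown in serum-free keratinocyte medium. The second came from dermal fibroblasts (Fb), which the growth protocol traces to db/db mice aged 14 weeks, a strain with obesity and diabetes, although the strain label of every library reads C57BL/6. The Fb grew in medium with 10% fetal bovine serum and then spent 2 days without serum before collection, and both cell types were at passage 0 to 1. Cell type, donor mice, age and medium changed together between the groups and cannot be told apart. The labels do not say which animals a library came from, and the p-values below therefore describe differences among libraries, part of which may be technical.

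A miRNA gene is first transcribed into a long primary transcript that holds the hairpin. In the nucleus Drosha and its partner DGCR8 cut the hairpin free, and in the cytoplasm Dicer removes the loop and leaves a short duplex, of which one strand, the mature miRNA, guides Argonaute proteins to messenger RNAs. Some hairpins take other routes. Mirtrons are short introns, or ends of introns, whose hairpin is released by splicing in place of Drosha, and some annotated hairpins lie in transfer RNA genes or in repeats. Reads from hairpin loops, flanks and uncut precursors are scarce in most small RNA libraries because fragments of miRNA length dominate. Here a read on a hairpin row can be a piece of any length the library kept, so the row does not show that the intact precursor was in the exosome. How reads that match both a hairpin and the mature sequence within it were divided is not stated in the labels or files.

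Assigned reads numbered between 9894485 and 11149046 in ESC libraries and between 6914504 and 8691350 in Fb libraries. At that depth 3 reads, the limit that a count of 0 allows, equal 0.269 to 0.303 RPM (reads divided by a library's assigned reads, times 1000000) in ESC and 0.345 to 0.434 RPM in Fb. Mature miRNAs made up 14.0% ± 0.710 of reads (SD, n = 3) in ESC and 1.46% ± 0.751 in Fb exosomes, and this difference in makeup moves with every comparison below. The cell labels were checked on mature miRNAs: 7 skin epithelium markers held 6.04% to 7.51% of miRNA reads in ESC and 0.753% to 1.42% in Fb, and 5 fibroblast or smooth muscle markers held 0.0179% to 0.0209% in ESC and 19.6% to 30.6% in Fb. A list of 14 markers of blood, endothelial, muscle, neural, pigment and liver cells held 0.0275% to 0.0592% in ESC and 0.107% to 1.22% in Fb, with 2 of the 14 at 0 reads in each group. Fb replicate 1 stood apart, with 0.613% of its reads on mature miRNAs against 2.05% and 1.72% in replicates 2 and 3.

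The sequences that the results turn on fall into 4 sets, all read from RefSeq on GRCm38.p6 and printed 5′ to 3′. In the first set are the mature sequences of the 2 rows that dominate the Fb libraries and of miR-6240, with the seed, bases 2 to 8, in capitals. The mature row of miR-6240 was higher in Fb, and its ratio was not called.
miR-6239: uAGCGUUGgaucacucggug
miR-6236: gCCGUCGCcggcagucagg
miR-6240: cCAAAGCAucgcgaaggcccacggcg
These 3 map to chr14:117953768-117953787 on the minus strand, chr9:110281353-110281371 on the plus strand and chr5:114851973-114851998 on the plus strand. The mir-6239 hairpin lies opposite an intron of Gpc6, which encodes a glypican proteoglycan, and mir-6236 and mir-6240 overlap no other gene in GENCODE. None of the 3 mature sequences occurs exactly in any of 141767 annotated transcripts. That search could not find near matches or RNAs outside this annotation, so it does not show that the reads come from these loci. Over all members with a RefSeq entry, 27 mature sequences had 27 distinct seeds, so no seed was shared between 2 of them.

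The second set holds the hairpins of mir-6978 and mir-1983, which come from unusual precursors, with the mature sequences in capitals.
mir-6978: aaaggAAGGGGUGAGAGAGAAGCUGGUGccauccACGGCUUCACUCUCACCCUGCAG
mir-1983: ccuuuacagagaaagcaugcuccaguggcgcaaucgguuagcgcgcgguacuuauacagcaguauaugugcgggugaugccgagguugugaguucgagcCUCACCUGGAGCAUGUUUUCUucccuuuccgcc
The mir-6978 hairpin lies at chr17:57217172-57217228 on the minus strand, in an intron of C3, the central component of complement. That intron is 94 bases long, and the hairpin ends 0 bases from its 3′ end and starts 37 bases from its 5′ end, the layout of a mirtron with a tail at one end. The mir-1983 hairpin, at chr13:21896918-21897049 on the minus strand, holds the sequence of an isoleucine transfer RNA and overlaps no gene in the annotation used.

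The third set is the mir-3473 family, with its common run of 11 bases, CUCUCCAGCCC, or the complement of that run, GGGCUGGAGAG, in capitals.
mir-3473b: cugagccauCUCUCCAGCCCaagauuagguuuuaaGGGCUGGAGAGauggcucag
mir-3473c: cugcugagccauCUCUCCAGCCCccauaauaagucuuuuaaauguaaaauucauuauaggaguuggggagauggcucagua
mir-3473d: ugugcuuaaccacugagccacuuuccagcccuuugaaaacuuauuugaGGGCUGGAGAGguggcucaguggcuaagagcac
mir-3473f: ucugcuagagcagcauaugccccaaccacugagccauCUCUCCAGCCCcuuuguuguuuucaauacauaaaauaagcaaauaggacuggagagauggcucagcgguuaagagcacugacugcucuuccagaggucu
Searched on both strands, the run occurs in 5 of 1005 RefSeq hairpins (0.498%), namely these 4 and mir-3473e. The mature miR-3473b, the 3′ arm of its hairpin, occurs exactly in 428 of 141767 annotated transcripts (358 genes) in the sense direction and in 437 in the antisense direction, so its reads cannot be assigned to the miRNA locus with certainty. The mature sequences of mir-3473c, mir-3473d and mir-3473f matched 0 transcripts.

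The fourth set is mir-574 and mir-1187, which hold long runs of alternating 2 bases, with the mature sequences in capitals.
mir-574: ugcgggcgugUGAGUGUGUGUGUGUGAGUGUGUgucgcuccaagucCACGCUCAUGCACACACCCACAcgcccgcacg
mir-1187: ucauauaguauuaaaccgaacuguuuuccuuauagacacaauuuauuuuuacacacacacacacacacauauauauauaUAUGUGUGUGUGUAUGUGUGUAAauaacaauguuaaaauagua
The longest run of alternating 2 bases was 13 in mir-574, of G and U, and 19 in mir-1187, of A and C. Of 1005 RefSeq hairpins 6 (0.597%) have such a run of 10 or more. mir-574, at chr5:64970318-64970395 on the plus strand, lies in an intron of Fam114a1, and mir-1187, at chr5:82798944-82799065 on the minus strand, overlaps no gene.

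The first question was how much of each library the 25 hairpins held. They took 0.0141%, 0.0193% and 0.0123% of all reads in ESC replicates 1 to 3 and 0.0636%, 0.131% and 0.107% in Fb replicates 1 to 3. Every Fb library was above every ESC library. The means were 0.0152% ± 0.00362 in ESC and 0.101% ± 0.0343 in Fb (SD, n = 3 each), 6.61-fold higher in Fb, and the exact two-sided permutation test gave p = 0.1, the smallest that 3 against 3 libraries allow. The highest ESC library had a 95% Clopper-Pearson interval that ended at 0.0201%, and the lowest Fb library had one that began at 0.0618%, with counting error alone taken into account. In pooled vesicles, fewer vesicles that carry an RNA and less of it per vesicle cannot be told apart. The members held 83.5% to 89.4% of all hairpin reads in ESC and 95.3% to 99.3% in Fb libraries.

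**Figure D1:**
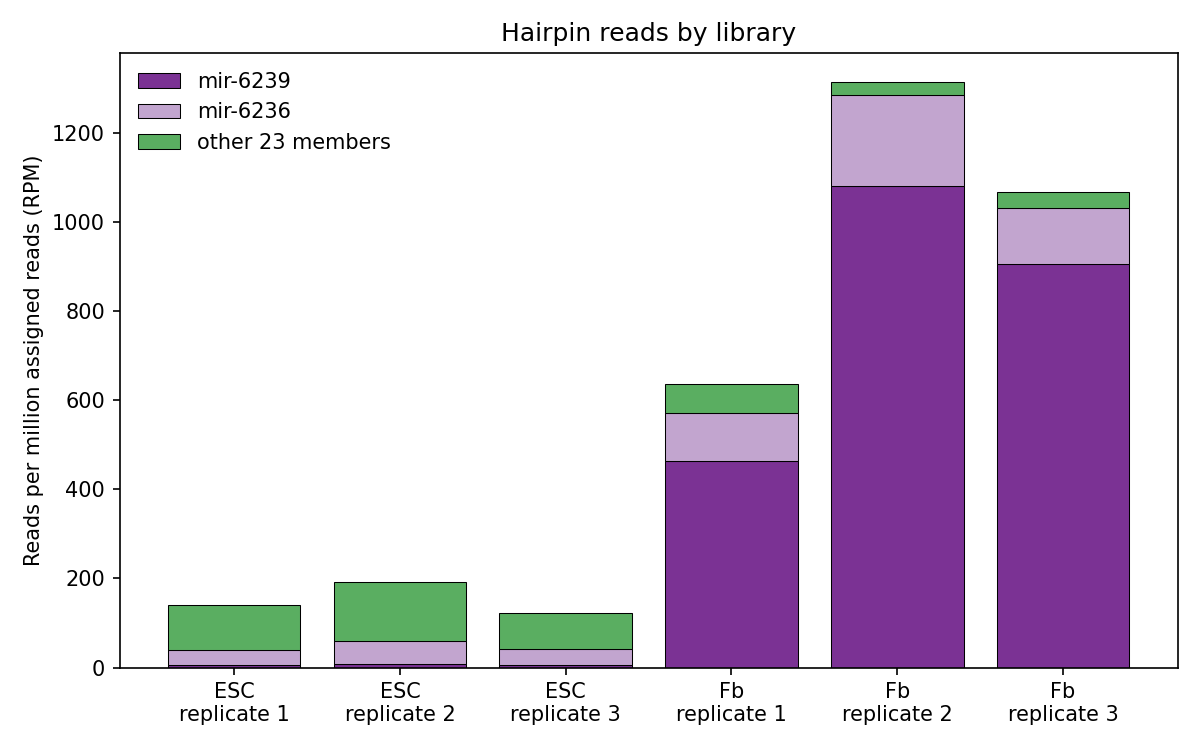
RPM (vertical axis) on mir-6239, mir-6236 and the other 23 hairpin members, stacked for each of the 6 libraries. mir-6239 fills most of the 3 Fb bars, while in the ESC bars the other 23 members make up the larger part.

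That excess came from 2 rows. mir-6239 received 54.0, 97.1 and 68.5 reads in the ESC libraries and 3712, 9386 and 6260 in the Fb libraries. Its level was 6.92 ± 1.65 RPM in ESC and 817 ± 317 RPM in Fb (SD, n = 3 each), 118-fold higher. mir-6239 and mir-6236 together held 28.2% to 33.2% of the members' reads in ESC and 89.8% to 97.8% in Fb.

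mir-6236 held more reads than mir-6239 in every ESC library and fewer in every Fb library. It had 340, 561 and 354 reads in ESC and 848, 1775 and 875 in Fb, equal to 39.6 ± 9.31 and 146 ± 51.7 RPM, 3.68-fold higher in Fb. In both rows all Fb libraries lay above all ESC libraries.

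Without mir-6239 and mir-6236 the direction of the sum turned. The other 23 members held 101.6, 133.5 and 82.0 RPM in the ESC libraries and 65.1, 29.3 and 35.5 RPM in the Fb libraries. The groups did not overlap, and ESC was 2.44-fold higher (exact two-sided permutation test, p = 0.1). This sum includes let-7j and mir-574, whose hairpin reads cannot be separated from mature reads, as described below. They held 18.7 and 23.7 RPM in ESC replicate 3 and 0.370 and 5.97 RPM in Fb replicate 1. Without let-7j and mir-574 too, ESC replicate 3 would lie below Fb replicate 1, so the groups would overlap. With mir-6239 alone left out, the groups overlapped, at 0.0145% of reads in ESC and 0.0189% in Fb (p = 0.3, exact permutation test).

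Member by member, 3 hairpins (12% of 25) were higher in every Fb library than in any ESC library, namely mir-6239, mir-6236 and mir-3473c. The background is 6.09% of 5399 RNAs with 20 or more reads and 7.73% of 414 such mature miRNAs. Another 9 (36%) were higher in every ESC library: mir-574, let-7j, mir-1983, mir-6978, mir-320, mir-376c, mir-3473d, mir-2137 and mir-1187, beside a background of 19.5% of the RNAs and 76.8% of the mature miRNAs. The hairpins' counts were not tested against either background. The remaining 13 overlapped. A row could reach 20 reads through 1 group alone, so these counts describe the rows that were kept and not hairpins in general.

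**Figure D2:**
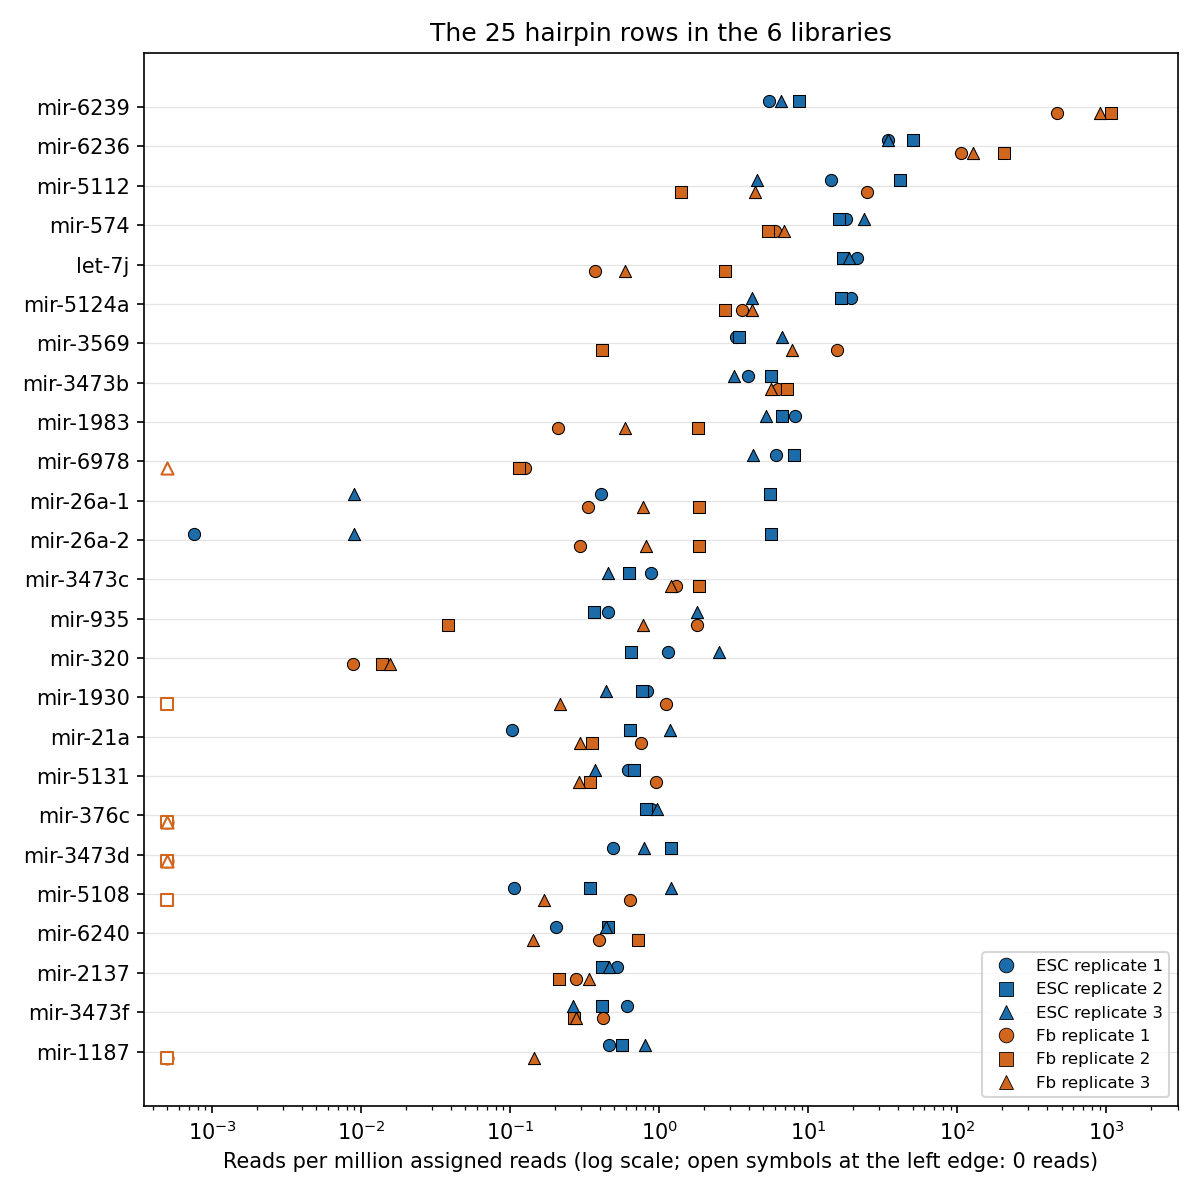
RPM on a log axis for the 25 hairpin members, in order of total reads, with 1 symbol per library (blue ESC, orange Fb, shape by replicate, open symbols for 0 reads). mir-6239 and mir-6236 lie to the right in Fb, 9 members such as let-7j, mir-1983 and mir-6978 lie to the right in ESC, and mir-26a-1 and mir-26a-2 are spread over several orders of magnitude within ESC.

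A fit over all RNAs with edgeR's quasi-likelihood test (TMM factors, Benjamini-Hochberg adjustment, threshold 0.05) kept 2999 RNAs and called 246 (8.2%) higher in Fb and 109 (3.63%) higher in ESC. Only 11 of the 25 members passed its filter on low counts, and 1 was called in each direction. The median log2 difference, Fb minus ESC, was 0.17 over the 11 members and -0.07 over all tested RNAs. TMM factors were 1.61 to 1.63 in ESC but 2.17, 0.232 and 0.467 in Fb replicates 1 to 3, so Fb libraries were scaled very differently from one another.

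mir-6239 rose in Fb exosomes by a log2 difference of 9.07 (SE 1.78, edgeR adjusted p = 0.0143). The row of its mature form behaved alike, at 3.16 ± 0.797 RPM in ESC and 340.9 ± 142.3 RPM in Fb, a log2 difference of 8.91 (SE 1.70, edgeR adjusted p = 0.0140). The hairpin call was lost without ESC replicate 1, 2 or 3 or Fb replicate 3 in turn, with edgeR adjusted p from 0.0543 to 0.106, and in those 4 fits edgeR called 0 RNAs, with 560 to 625 at an unadjusted p under 0.05. Its log2 difference remained between 6.88 and 9.60 under all 14 alternative fits.

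mir-6978, the C3 intron hairpin, fell in Fb relative to ESC exosomes. It had 60.1, 89.4 and 44.3 reads in the ESC libraries and 1, 1 and 0 in the Fb libraries. The log2 difference was -5.14 (SE 0.85, edgeR adjusted p = 0.0140). Taken from 194 against 2 reads and the library totals, the rate was 72.9 times that of Fb, with a 95% interval of 19.9 to 606 that covers counting error only. The call was lost without the same 4 libraries in turn (edgeR adjusted p from 0.0511 to 0.0726), while the log2 difference ranged from -6.08 to -4.17 over the 14 alternatives.

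The other 9 tested members did not pass. Among those with positive differences, mir-6236 had a log2 difference of 4.04 (SE 1.28, edgeR adjusted p = 0.0726) and mir-3473c one of 2.87 (SE 0.88, edgeR adjusted p = 0.0656). DESeq2 called both, with adjusted p = 0.000555 and 0.0498, together with mir-6239, mir-6978 and mir-320. Its calls were 3 members higher in Fb and 2 in ESC of the 25 it fitted, of which 24 had an adjusted p. The background was 3.56% and 1.38% of the 10884 RNAs it fitted, which also include rows without an adjusted p. Without Fb replicate 1 edgeR also called mir-6236 (log2 difference 4.57, adjusted p = 0.00140), mir-3473b (3.02, adjusted p = 0.00363) and mir-3473c (3.57, adjusted p = 0.00326). Without Fb replicate 2 the same 3 rows were at 2.70, 1.44 and 1.47 (edgeR adjusted p = 0.138, 0.268 and 0.325), and with library totals alone at 1.89, 0.58 and 1.07, and none of the 3 was called in either fit.

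For mir-574 the scale set the sign of the difference. It had 176, 179 and 245 reads in ESC and 47.7, 46.4 and 47.4 in Fb, or 19.2 ± 3.98 and 6.05 ± 0.761 RPM, 3.17-fold higher in ESC as a share of all reads. In the edgeR fit its log2 difference was 0.17 with TMM factors but -1.66 with library totals alone, and it passed in neither (adjusted p = 0.955 and 0.275). Library totals moved the median of all RNAs from -0.07 to -0.80, so the directions given for single members hold for shares of all reads.

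let-7j, a member of the let-7 family that restrains proliferation in differentiated cells, showed one of the clearest gaps by share. It had 209, 190 and 194 reads in ESC and 2.96, 24.1 and 4.09 in Fb, or 19.0 ± 2.03 and 1.245 ± 1.329 RPM, 15.2-fold higher in ESC. Its log2 difference was -1.53 (SE 1.13, edgeR adjusted p = 0.503) and did not pass. It passed with library totals alone (-3.90, edgeR adjusted p = 0.0287), the scale of the shares, and without Fb replicate 2 (-4.52, edgeR adjusted p = 0.0260), and without Fb replicate 1 it was -0.88 (edgeR adjusted p = 0.503). The files have no separate mature row for let-7j, so its hairpin and mature reads cannot be told apart and it has no ratio. Of 14 let-7 and mir-98 hairpin rows it was the single member, with 624 reads.

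The transfer RNA-like mir-1983 had 80.9, 73.8 and 53.6 reads in ESC and 1.66, 15.8 and 4.07 in Fb. That is 6.65 ± 1.51 against 0.873 ± 0.845 RPM, 7.62-fold higher in ESC without overlap, while its edgeR log2 difference of -0.66 did not pass (adjusted p = 0.808). The transfer RNA genes for isoleucine with the TAT anticodon summed to 2.08 ± 0.450 RPM in ESC and 2.58 ± 1.93 RPM in Fb and overlapped. In the single Fb libraries they were at 1.00, 4.73 and 2.01 RPM and mir-1983 at 0.207, 1.82 and 0.589 RPM, with replicate 2 highest and replicate 1 lowest in both. In the single ESC libraries the orders differed. There the genes were at 2.38, 1.56 and 2.30 RPM, lowest in replicate 2, and mir-1983 at 8.18, 6.62 and 5.17 RPM, lowest in replicate 3. Whether mir-1983 reads come from those genes was not tested.

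mir-320, whose hairpin is made without Drosha, had 11.4, 7.20 and 26.1 reads in ESC and 0.0707, 0.119 and 0.109 in Fb. Fractions this far under 1 read are shares of reads that the counting divided among rows, and they round to 0. Against 3 reads per Fb library, its ESC level was at least 3.74-fold higher.

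mir-376c, from the imprinted Dlk1-Dio3 cluster, had 8.67, 9.12 and 10.0 reads in ESC and 0 in all Fb libraries, at least 2.31-fold higher in ESC. Its mature rows had 38.5 reads in ESC and 5 in Fb. In ESC replicates 2 and 3 the hairpin row and the miR-376c-3p row held the same 9.12 and 10.0 reads, so hairpin and mature reads cannot be separated there. Over the whole cluster, 51 hairpin rows had 58.5 reads in ESC and 22.4 in Fb, and the mature forms had 328.8 and 1541. The 50 rows other than mir-376c had 30.7 reads in ESC and 22.4 in Fb, or 0.978 and 0.951 RPM over the pooled libraries.

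Within the mir-3473 family, whose common run is shown above, the 4 rows differed in direction. mir-3473d had 4.86, 13.3 and 8.13 reads in ESC and 0 in all Fb libraries, at least 2.14-fold higher in ESC. mir-3473c had 8.67, 7 and 4.67 reads in ESC and 10.3, 16 and 8.33 in Fb, or 0.651 ± 0.214 and 1.45 ± 0.345 RPM. mir-3473b overlapped between the groups, at 4.23 ± 1.27 and 6.33 ± 0.790 RPM.

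The fourth row, mir-3473f, had 2.73 to 6.00 reads in ESC and 1.92 to 3.33 in Fb and overlapped too. Summed, the family was at 6.13 ± 1.63 RPM in ESC and 8.10 ± 1.11 RPM in Fb, with overlap. How reads from the common run were divided among the rows is not stated, and the split within the family is uncertain.

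Among the members with overlapping groups, single libraries were often far from the rest. mir-26a-1 had 4.01, 62.0 and 0.0928 reads in ESC and 2.67, 16 and 5.33 in Fb. mir-26a-2 had 0.00742, 63.0 and 0.0928 reads in ESC and 2.33, 16 and 5.67 in Fb. ESC replicate 2 was high for both, and the 2 copies differed by at most 4.00 reads in any library, so they cannot be counted as independent. They lie in Ctdspl and Ctdsp2, which encode related small phosphatases, and give rise to the same miR-26a-5p.

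Fb replicate 1 was the highest Fb library for 8 of the 13 overlapping members. For mir-5112 it had 199.3 reads against 12.1 and 30.2 in the other two, beside 140, 459 and 46.7 in ESC. For mir-3569 it had 123.6 against 3.58 and 54.0, beside 32.6, 38.1 and 69.2 in ESC. mir-5124a, in an intron of Gcnt2, had 191.5, 183.2 and 43.4 reads in ESC and 28.6, 24.1 and 29.1 in Fb. As a share of all reads, ESC replicate 3 alone reached down to the Fb range, at 4.186 RPM against 3.581, 2.770 and 4.207 RPM. The other 6 overlapping members not yet described, mir-935, mir-1930, mir-21a, mir-5131, mir-5108 and mir-6240, had 21.99 to 47.1 reads each over the 6 libraries.

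The threshold of 20 reads cut through rows of like size. Just inside were mir-1187 with 20.1 reads in all, mir-3473f with 20.9 and mir-2137 with 20.9. Just outside were mir-5099 with 16.7, mir-135b with 15.996 and let-7k with 15.3. mir-1187 had 4.55, 6.24 and 8.32 reads in ESC and 0, 0 and 1 in Fb, and mir-2137 had 5.13, 4.62 and 4.78 in ESC and 2.21, 1.84 and 2.34 in Fb.

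The second question was how hairpin reads stood to mature reads of the same miRNA. Hairpin rows of 2 copies were summed, which left 23 miRNAs with both kinds of row. Over their sums, ESC libraries had 0.529, 0.802 and 0.494 hairpin reads per 100 mature reads and Fb libraries had 51.9, 51.0 and 44.9. The groups did not overlap, and the log2 ratio was -7.40 ± 0.379 in ESC and -1.02 ± 0.114 in Fb (exact two-sided permutation test, p = 0.1, the smallest possible). Both terms moved: hairpin reads were higher in Fb, and the mature reads of these miRNAs were lower, at 21889 ± 822 RPM in ESC and 2057 ± 728 RPM in Fb. Without miR-6239 and miR-6236 the ratio was 0.396 ± 0.121 in ESC and 3.07 ± 2.72 per 100 in Fb, again without overlap, with Fb replicate 1 at 6.19 and replicates 2 and 3 at 1.24 and 1.78.

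The summed ratio is carried by a few abundant miRNAs and does not describe the typical one. The median over the 23 miRNAs of the log2 ratio differed between the groups by only 0.22 (p = 0.4, exact permutation test). Of the 23, the ratio was higher in every ESC library for 4 miRNAs, higher in every Fb library for 3 and overlapping for 9. For 7 it was not defined in some library because a library had 0 mature reads. The same counts were not made over all 1130 miRNAs with both kinds of row, so they have no background. Of the 4, miR-320 and miR-3473d had 0.0707 to 0.119 and 0 hairpin reads per Fb library. The limma fit below, with 0.5 added to each count, put their log2 differences at 0.01 and 0.67. With 0.1 added they were -1.53 and -1.32, and with 2 added they were 1.65 and 1.82. The sign thus depends on the added count, and no direction can be given for these 2 ratios.

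**Figure D3:**
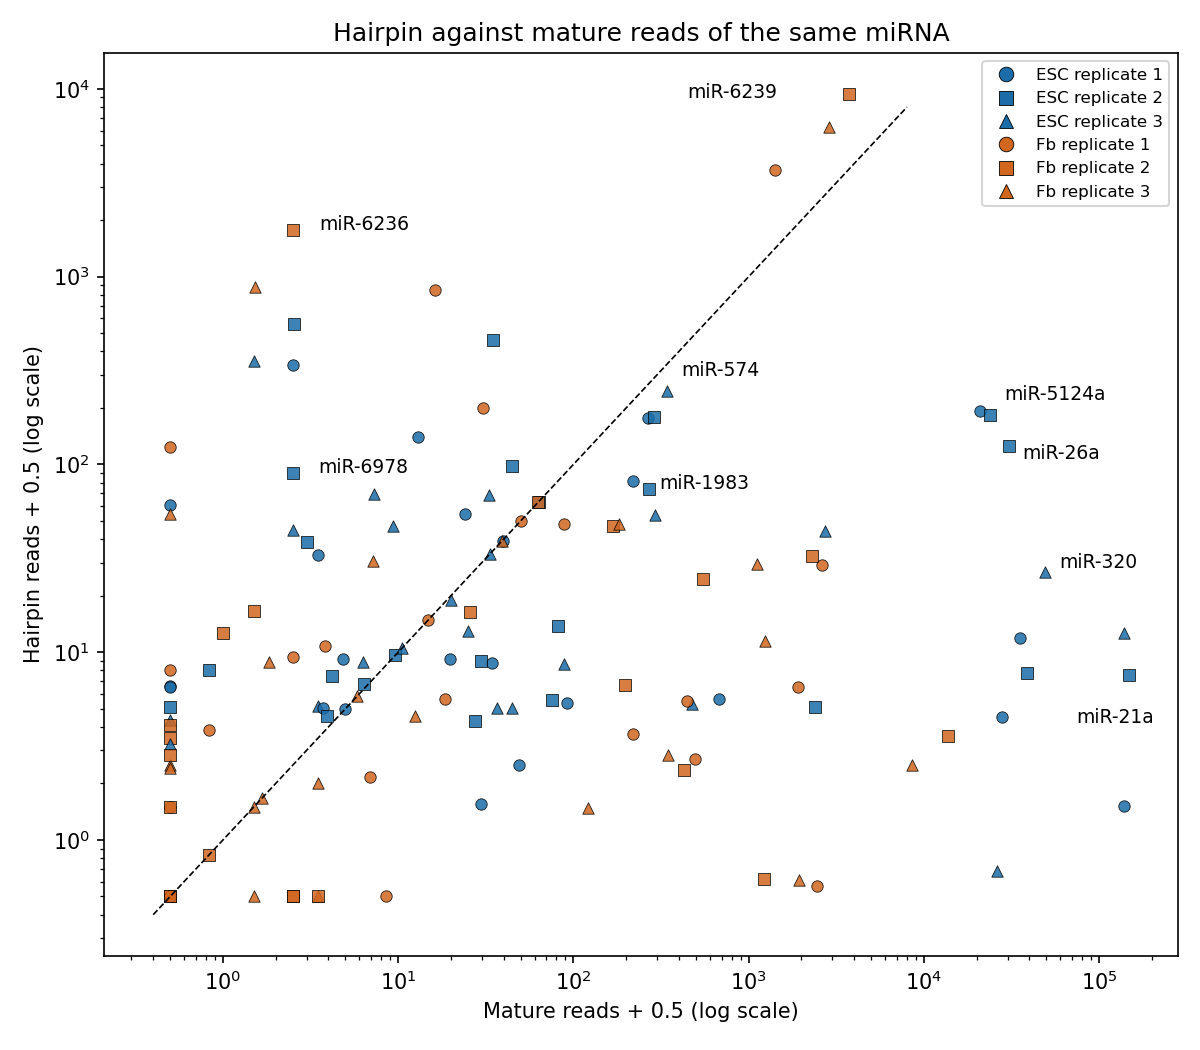
Hairpin reads against mature reads of the same miRNA, each plus 0.5 and on log axes, with 1 point per miRNA and library (blue ESC, orange Fb, shape by replicate) and a dashed line where both are equal. miR-6236 in all libraries and miR-6978 in ESC lie far above the line, miR-6978 in Fb lies on or near it at 0 or 1 hairpin read, miR-6239 lies a little above it in all libraries, and miR-21a, miR-26a and miR-320 lie far below it.

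The ratio over all libraries ran from 6.98e-05 to 200, and 9 of the 23 had more hairpin than mature reads. miR-5131, with 30.0 hairpin and 0.333 mature reads (ratio 90.0), and miR-3473f, with 20.9 and 0.333 (ratio 62.8), had fewer than 50 reads of both kinds together. Of the miRNAs with 50 or more, miR-6236 was at the top, with 4754 hairpin reads and 23.8 mature reads, a ratio of 200. miR-6978 had 195.8 hairpin and 4.00 mature reads (ratio 49.0), and miR-3569 had 321 and 12.3 (ratio 26.1). miR-5112 had 887 and 92.6 (ratio 9.58). In these 4 most reads lay on the hairpin row.

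At the other end stood miR-21a, a miRNA abundant in most tissues and linked to wound healing and growth. It had 31.4 hairpin reads and 449550 mature reads, a ratio of 6.98e-05. miR-320 followed with 45.0 and 129041 (ratio 0.000349), miR-26a with 177 and 88557 (0.00200) and miR-2137 with 20.9 and 4796 (0.00436). Of the 10 miRNAs with the most mature reads, only miR-21a and miR-320 had a hairpin that reached 20 reads. The first of them, miR-182, had 467695 mature reads and 4.12 hairpin reads.

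miR-6239 kept nearly the same ratio while its level differed 118-fold. Its hairpin row held 2.30, 2.19 and 2.10 reads per mature read in the ESC libraries and 2.63, 2.51 and 2.18 in the Fb libraries. The groups overlapped, and the log2 difference was 0.16 (SE 0.21, limma adjusted p = 0.647). miR-6236 had ratios of 169, 275 and 350 in ESC and 54.2, 881 and 862 in Fb, which overlapped and rest on 1.01 to 15.7 mature reads per library.

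**Figure D4:**
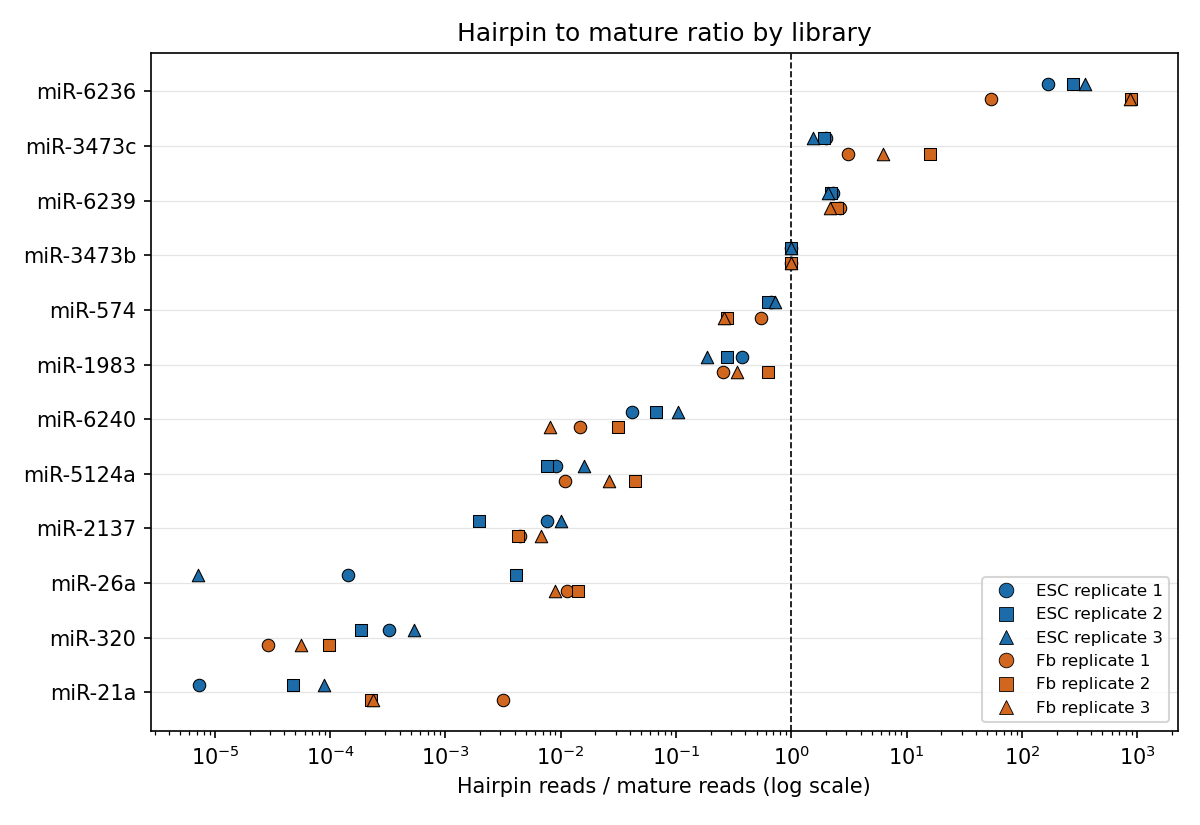
Hairpin reads divided by mature reads on a log axis for the 12 miRNAs with hairpin reads and at least 1 mature read in every library, with 1 symbol per library (blue ESC, orange Fb, shape by replicate) and a dashed line at 1. miR-6239 and miR-3473b stay in place in all 6 libraries, and miR-21a and miR-26a lie further right in Fb. miR-574, miR-6240 and miR-320 lie further left in Fb. The Fb positions of miR-320 rest on 0.0707, 0.119 and 0.109 hairpin reads, which round to 0. Its fitted log2 difference was 0.01 with 0.5 added to each count, -1.53 with 0.1 added and 1.65 with 2 added.

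A limma fit of the log2 ratio, with 0.5 added to each count, could be made for 37 miRNAs with at least 10 reads of each kind, 20 of them members. It called 3 (8.11%) with a higher ratio in Fb and 0 (0.0%) in ESC, and none of the 3 was a member, against 14 of the 37 (37.8%) and 5 of the 20 members at an unadjusted p under 0.05. The alternatives called 0 to 3 members. The 3 came with 2 added to each count, where 11 of all 37 were called higher in Fb and 1 in ESC. The median log2 difference was 0.35 over the members and 1.10 over all 37. The 3 called, miR-92a, let-7b and miR-125a, had 0.810 to 2.05, 1.27 to 8.95 and 0.0375 to 10.0 hairpin reads per Fb library. Per ESC library they had 2.08 to 4.51, 0.0422 to 1.12 and 0.0187 to 0.0213, so each rests on few reads. Their mature reads were lower in Fb, at 2231 to 2787, 2069 to 4451 and 89.9 to 121 per library. In ESC these were 51469 to 52820, 98293 to 115261 and 3227 to 4032.

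Among the members with a lower unadjusted p, miR-21a had ratios of 7.27e-06, 4.80e-05 and 8.75e-05 in ESC and 0.00317, 0.000226 and 0.000236 in Fb. The groups did not overlap, but the log2 difference of 4.12 (SE 1.37) had a limma adjusted p = 0.113. The hairpin reads behind it were 1.01, 7.08 and 12.1 in ESC and 6.05, 3.09 and 2.02 in Fb, so the separation came from the mature reads, which ranged from 138766 to 147438 in ESC and from 1910 to 13661 in Fb libraries. For miR-26a the log2 difference was 5.51 (SE 1.92, limma adjusted p = 0.113), with ESC replicate 2 at 0.00411 and the other two at 0.000144 and 7.07e-06. It was 7.50 and called without ESC replicate 2 (limma adjusted p = 0.0481), and 3.85 and not called without ESC replicate 3 (limma adjusted p = 0.209).

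miR-6240 differed in the opposite direction, with ratios of 0.0415, 0.0671 and 0.103 in ESC and 0.0146, 0.0315 and 0.00813 in Fb. Its log2 difference was -1.97 (SE 0.53, limma adjusted p = 0.112), and it was called without Fb replicate 2 (-2.39, limma adjusted p = 0.0494). The hairpin reads behind it were few, at 2.01, 5.05 and 4.57 in ESC and 3.17, 6.21 and 0.984 in Fb. They overlapped between the groups at 0.366 ± 0.141 and 0.417 ± 0.286 RPM. The mature row of miR-6240 rose in Fb by a log2 difference of 3.91 (SE 0.96, edgeR adjusted p = 0.0270).

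The same test put miR-3473c at a log2 difference of 1.63 (SE 0.55, limma adjusted p = 0.113), with ratios of 2, 1.91 and 1.56 in ESC and 3.10, 16 and 6.25 in Fb. These groups did not overlap, but Fb replicates 2 and 3 had only 1 and 1.33 mature reads. miR-574 had 0.663, 0.624 and 0.717 in ESC and 0.546, 0.275 and 0.261 in Fb, with a log2 difference of -0.96 (SE 0.37, limma adjusted p = 0.122), and was called without Fb replicate 1 (-1.30, limma adjusted p = 0.0465).

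Some hairpin rows repeated a mature row almost read for read. mir-574 and miR-574-5p, the arm with the GU repeat, differed by less than 0.5 reads in all 6 libraries, and so did mir-3473b and miR-3473b. mir-935 equalled miR-935 within 0.5 reads in 4 of 6 libraries, and mir-1187 equalled miR-1187 in 4. mir-376c equalled miR-376c-3p in 3, with 0 reads on both rows in Fb replicate 1. Of 20 pairs of a hairpin and a mature row with at least 20 reads each, 2 were equal in 6 libraries, 1 in 4 or 5, and 15 in none. In such pairs the hairpin row carries no information beyond the mature row, and the ratio of miR-574 depends on its other arm, miR-574-3p, which had 90.0, 108 and 97.0 reads in ESC and 39.8, 121.96 and 133.96 in Fb.

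The hairpins of epithelial and mesenchymal miRNAs, lists wider than the markers above, were almost empty. The 10 epithelial hairpins were those of the miR-200 family, miR-203 and miR-205, and also mir-182, mir-183 and mir-96. They had 14.6 reads in the 3 ESC libraries beside 859050 mature reads, or 0.0170 per 1000, and 0 of them was a member. In Fb they had 2.12 hairpin and 6674 mature reads, or 0.318 per 1000. The 8 mesenchymal rows, among them mir-143, mir-145a and mir-199a, had 17.7 hairpin and 99184 mature reads in Fb, or 0.178 per 1000, and again 0 members. In ESC they had 2.22 hairpin and 3235 mature reads, or 0.688 per 1000. The 6 HOX-cluster rows also had 0 members.

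Among all 1226 hairpin rows 2.04% were members, so a count of 0 in lists this short does not set them apart. Of 12 rows that general knowledge links to ribosomal or other abundant RNAs, 4 were members (mir-2137, mir-6236, mir-6239 and mir-6240). They and the other 8 held 1513 reads in ESC and 22884 in Fb. Whether fragments of such RNAs lie behind these rows was not tested. Of 23 rows of broadly expressed miRNAs 3 were members (mir-21a, mir-26a-1 and mir-26a-2), and of 6 rows made without Drosha or Dicer 1, mir-320.

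By position, 13 of the 23 members found in GENCODE lie in a gene on the same strand, 6 of them touching an exon, 3 lie only opposite a gene and 7 overlap none. mir-21a overlaps an untranslated part of an exon of Vmp1, which encodes a membrane protein of autophagy. The hairpins' median length was 84 bases and their median GC content 52.9% over the 19 with a RefSeq sequence, against 79 bases and 51.7% over all 1005.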

How the data were processed

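The 6 deposited tables hold 1 estimated count for each non-coding RNA and library, and 82.6% to 92.2% of nonzero values in a library are fractional. The submitters' processing notes name FastQC, cutadapt and the build GRCm38. Aligner, counting tool, strand setting and handling of reads matching several rows are not given in these sources. Shares are percent of all assigned reads or RPM. Counts were rounded and fitted with edgeR 4.0.16 in R 4.3.3 (filterByExpr with minimum count 10 and minimum total 15, TMM, group as the only term), and log2 ratios with limma 3.58.1. Exact two-sided permutation tests used scipy 1.17.1. Alternatives were DESeq2 1.42.0, other factors, filters and pseudocounts, tRNA genes left out, a replicate block and leaving out each library. Both fits were tested on simulated data. Without molecular identifiers, intervals and the floor of 3 reads cover counting error only. Positions and hosts came from GENCODE M21, sequences from RefSeq GRCm38.p6, which held 19 hairpins and 21 mature entries of the 25 members. The members and lists were chosen with earlier results of these data known. The named rows were the 12 members with most reads, called rows, rows at the threshold, the 4 largest and 4 smallest ratios among miRNAs with 50 or more hairpin and mature reads together, and up to 3 members per list.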

Additional observations from a re-analysis of the deposited data

How the results depend on the processing

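The number of members called in the all-RNA fit was 2 and moved with the setting: 5 with DESeq2, 6 without a count filter, 4 with a minimum count of 5, and 6 with library totals alone and no count filter, a setting chosen after seeing the data. Leaving out 1 library at a time gave 0 to 5 members called. The 5, of 14 tested, came without Fb replicate 1, where 462 RNAs were called higher in Fb and 129 in ESC of 3405. With the ratio fit the number of members called was 0. It became 3 of 20 with a pseudocount of 2, where 11 miRNAs were called higher in Fb and 1 in ESC of 37. With at least 1 read of each kind it became 2 of 21, beside 65 and 6 of 243. When 1 library was left out it was 0 to 2. The 2, of 20 tested, came without Fb replicate 2, beside 4 and 1 of 36. The summed share was 5.60-fold to 7.82-fold higher in Fb, and the summed log2 ratio 6.24 to 6.59 higher, without any 1 library. With the replicate number as a block the members called were 2 of 15 (0 higher in Fb and 2 in ESC) and 0 of 20. Over all RNAs, 149 were called higher in Fb and 81 in ESC of 3676, and over all ratios 0 of 37. In the all-RNA fit with the block mir-6239 had a log2 difference of 8.28 and an edgeR adjusted p = 0.05004. Same-numbered ESC and Fb libraries correlated at 0.0096, 0.0880 and -0.0016 in their deviations from the group means. With 3 libraries per group these values cannot show whether they shared more than a number. The share without mir-6239 and mir-6236, also chosen after seeing the data, gave a ratio of 0.410 for Fb over ESC. Signs also turned in rows that were not called. In the all-RNA fit mir-574 was at -0.15 with DESeq2, -0.28 after upper-quartile scaling, -1.66 with library totals alone, -0.33 without a count filter, -0.26 with the block and -1.67 with library totals and no filter, and mir-5112 was at 0.055 with the block. Leaving out 1 library gave -0.87 to 0.62 for mir-5112, -0.50 to 0.67 for mir-574, -0.71 to 0.37 for mir-5124a and -3.25 to 0.082 for mir-1983. In the ratio fit a pseudocount of 0.1 put miR-3473d at -1.32, miR-2137 at -0.023 and miR-320 at -1.53. A pseudocount of 2 put miR-320 at 1.65, called higher in Fb (limma adjusted p = 0.0497). Leaving out 1 library gave ratio differences of -0.14 to 0.68 for miR-6236, -0.75 to 0.026 for miR-5112, -0.11 to 0.037 for miR-935, -0.61 to 0.57 for miR-2137 and -0.36 to 0.36 for miR-320. Over single members, 338 values kept sign and side of the threshold under an alternative, 9 lost a call, 18 gained one and 22 turned sign. The cause was not tested.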
